A study of Mus musculus with 6 samples.

Results

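The 40 genes described here act in the G2 phase and in mitosis, from the kinases that start chromosome condensation to the proteins that part the daughter cells. They were chosen by name as established genes of these phases. The rule uses no measured value, but earlier results of these data were known when the genes were chosen. All 40 were found among the 53460 entries of the deposited expression table. The table holds FPKM, which are fragment counts scaled by transcript length and by the number of mapped fragments, for cultured mouse cardiac mesenchymal cells. Cells came from hearts of C57BL6/J mice that the labels give as male. In the infarct group (3 libraries) the coronary artery had been closed for 60 min and then reopened, and the cells were taken 28 days later. In the sham group (3 libraries) mice of the same cohort had the chest opened without an infarct. In both groups the slowly adherent cells, those that attached late to plastic, were used. The libraries are named by the number of their column in the table, so infarct 1 is the first infarct column. All 6 titles also carry the mark P4, which the labels do not spell out. They do not say whether a library came from 1 heart or from several.

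A cell that leaves G2 activates cyclin-dependent kinase 1 with its B-type cyclins, condenses its chromosomes, and attaches them through kinetochores to a spindle of microtubules. The spindle checkpoint holds the anaphase-promoting complex in check until every chromosome is attached, after which cyclin B and securin are degraded and the cell divides. Transcripts of this program are made mainly in S, G2 and M, under B-Myb with the MuvB complex and FoxM1, and are repressed by the DREAM complex in resting cells. Adult cardiac stromal cells divide little in the undamaged heart and enter the cell cycle after injury and in culture.

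Shared promoter letters are shown first, because genes of this program are known for a common pair of elements, and the values that follow had nearly the same order of libraries. The cell cycle genes homology region (CHR) was searched as TTTGAA, as its reverse complement TTCAAA, and as the palindromic variant TTCGAA. The box bound by NF-Y was searched as CCAAT and on the other strand as ATTGG. RefSeq promoter windows of the build GRCm38.p6, from 250 bases before to 50 bases after the transcription start, were found for 33 of the 40 genes. Ccna2, Aurkb, Pbk, Kif20a, Foxm1, Cdc25c and Tpx2 had none. The windows of Cdk1, Ccnb2, Plk1, Cdc20 and Top2a are printed from 5′ to 3′ on the strand of the gene, with each match in capitals. They are examples from mitotic entry, kinase, checkpoint and chromosome genes.
Cdk1: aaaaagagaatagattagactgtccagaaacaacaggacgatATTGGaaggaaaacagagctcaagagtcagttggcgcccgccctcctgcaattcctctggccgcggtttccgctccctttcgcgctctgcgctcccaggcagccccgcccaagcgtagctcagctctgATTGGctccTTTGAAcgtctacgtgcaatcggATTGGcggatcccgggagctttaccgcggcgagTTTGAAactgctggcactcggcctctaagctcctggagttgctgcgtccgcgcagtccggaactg
Ccnb2: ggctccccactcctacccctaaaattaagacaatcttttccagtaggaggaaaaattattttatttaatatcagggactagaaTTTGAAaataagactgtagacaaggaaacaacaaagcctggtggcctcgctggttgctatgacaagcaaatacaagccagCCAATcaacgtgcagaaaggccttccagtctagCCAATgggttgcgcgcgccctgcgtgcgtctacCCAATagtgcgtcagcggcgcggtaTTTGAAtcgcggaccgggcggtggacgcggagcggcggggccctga
Plk1: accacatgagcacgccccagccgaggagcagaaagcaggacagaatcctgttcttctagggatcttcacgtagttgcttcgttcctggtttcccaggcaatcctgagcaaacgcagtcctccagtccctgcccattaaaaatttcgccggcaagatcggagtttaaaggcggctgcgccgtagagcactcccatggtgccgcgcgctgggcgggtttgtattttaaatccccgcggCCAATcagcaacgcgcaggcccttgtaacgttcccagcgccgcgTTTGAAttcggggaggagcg
Cdc20: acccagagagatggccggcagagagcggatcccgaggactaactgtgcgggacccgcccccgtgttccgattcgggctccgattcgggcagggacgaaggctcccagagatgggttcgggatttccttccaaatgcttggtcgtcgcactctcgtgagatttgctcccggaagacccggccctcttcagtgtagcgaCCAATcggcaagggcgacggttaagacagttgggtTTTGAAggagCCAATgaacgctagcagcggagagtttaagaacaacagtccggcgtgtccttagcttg
Top2a: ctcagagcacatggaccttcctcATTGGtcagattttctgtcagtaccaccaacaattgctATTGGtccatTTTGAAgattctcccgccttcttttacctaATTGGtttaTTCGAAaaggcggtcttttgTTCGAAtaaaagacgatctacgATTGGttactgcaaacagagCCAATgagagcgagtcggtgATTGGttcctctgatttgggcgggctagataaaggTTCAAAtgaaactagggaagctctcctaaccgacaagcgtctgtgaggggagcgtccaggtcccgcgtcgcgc

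The Cdk1 window is chr10:69352863-69353162 on the minus strand, and that of Ccnb2 is chr9:70421505-70421804 on the minus strand. Plk1 is shown for chr7:122159185-122159484 on the plus strand, Cdc20 for chr4:118437294-118437593 on the minus strand and Top2a for chr11:99024140-99024439 on the minus strand. Counting the first transcribed base as 0, the Cdk1 window held CHR letters starting at -71 and -15, and NF-Y boxes at -208, -80 and -48. The Ccnb2 window had 3 NF-Y boxes, at -87, -54 and -21, between CHR matches at -167 and 4. In Plk1 a single box at -14 preceded a CHR match at 30. In Cdc20 the CHR match at -18 lay between boxes at -53 and -8. The Top2a window held the most letters of these 5, with 4 CHR matches and 6 boxes.

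CHR letters stood in the windows of 26 of the 33 genes (78.8%), against 21.7% of 27025 genes with a window. NF-Y boxes were present in 75.8% of the 33 and in 41.1% of all. Both kinds occurred together in 23 of the 33 genes (69.7%), against 8.61% of all genes. Among other G2 and M phase genes 27 of 40 with a window held CHR letters (67.5%), whereas among S phase genes 8 of 35 did (22.9%). Subunits of the anaphase-promoting complex, which act in mitosis but are present throughout the cycle, had them in 2 of 13 genes (15.4%). The CHR letters of the 40 genes lay close to the start: 17 of 35 windows (48.6%) had a match in the first 50 transcribed bases, against 2.46% of all windows. Boxes were densest from -50 to 0, in 51.4% of the windows against 9.03% of all. Birc5, Mad2l1, Melk, Nuf2 and Nusap1 had no match of either kind, and Ccnb1 had 2 boxes but no CHR letters. A match describes the letters and is neither a bound site nor a cause of the values, and the genes of this program are known in part through such promoters.

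**Figure D1:**
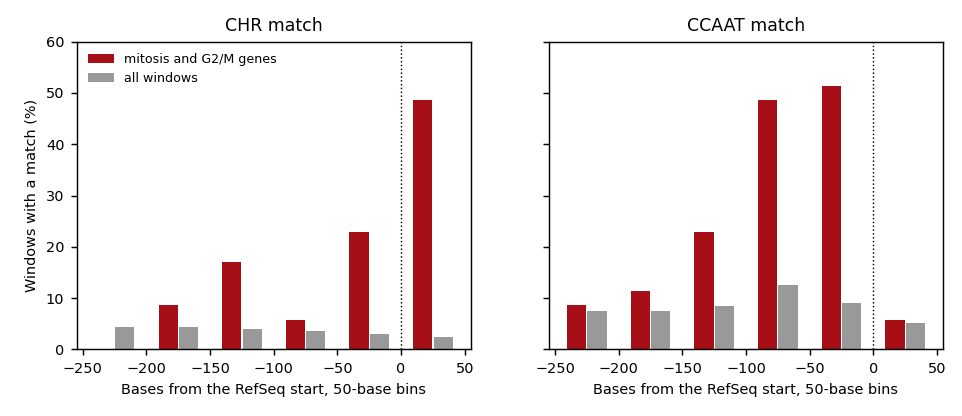
Share of promoter windows (percent, vertical axis) with a CHR match (left) or a CCAAT match (right) in each 50-base bin from the transcription start (horizontal axis, bases), for the genes described here (red) and for all windows (grey). CHR matches of these genes peak in the first 50 transcribed bases, at 48.6% of windows against 2.46% of all.

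The labels and the sex-linked genes disagreed. All mice are labelled male, yet Xist, which is transcribed from an inactive X chromosome, was present in all 6 libraries. It stood at 102 to 111 FPKM in sham and at 63.1 to 89.9 FPKM in infarct. Eif2s3y, a Y-linked gene, read 0.130, 0.225 and 0.151 FPKM across sham 1 to 3, and 10.6, 0.804 and 2.27 FPKM across infarct 1 to 3. Because every library held Xist, none could be left out on that ground, and results are given without infarct 1, which had the most Y-linked RNA. Sex-linked RNA thus differed with the group and cannot be told apart from it, and leaving out infarct 1 does not change that. Its part in the levels of the 40 genes was not tested. Implied depth, read from the smallest steps of the FPKM values, was about 22400000 to 31000000 fragments per library. The value of the 40 genes with the fewest implied fragments, Cdc25c in sham 3, rested on about 97.4.

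All 40 genes were expressed, and all 40 passed the filter of 1 FPKM in at least 3 libraries. Their mean over the 6 libraries ran from 2.56 FPKM for Espl1 to 54.2 FPKM for Cdk1, with a median of 12.9. No gene was called between infarct and sham by limma with an adjusted p under 0.05, against 3 of 12720 genes tested (0.0236%). At an unadjusted p under 0.05 the count was 0 of 40, against 456 genes, or 3.58%. In none of the 40 did the 3 infarct libraries lie wholly above or below the 3 sham libraries, against 7.81% of all genes. All 40 genes had their 2 highest values in sham 2 and infarct 1, an order found in 19.6% of all genes tested. In bulk RNA, fewer cells in these phases and less of this RNA per cell cannot be told apart.

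The order of the libraries was close to constant from gene to gene. The highest value was in infarct 1 for 23 genes and in sham 2 for 17. The lowest was in sham 3 for 38 genes, with Pbk lowest in sham 1 and Ttk lowest in infarct 2. Infarct 3 came next after that pair in 32 genes. The ratio of the highest library to the lowest had a median of 2.77 and ran from 2.05 for Ckap2 to 3.63 for Cdc25c. Within the sham group alone the median ratio was 2.61, and within the infarct group 1.95. The share of a gene's variance that lay between the groups had a median of 2.62% over the 40 genes and 8.55% over all genes tested.

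**Figure D2:**
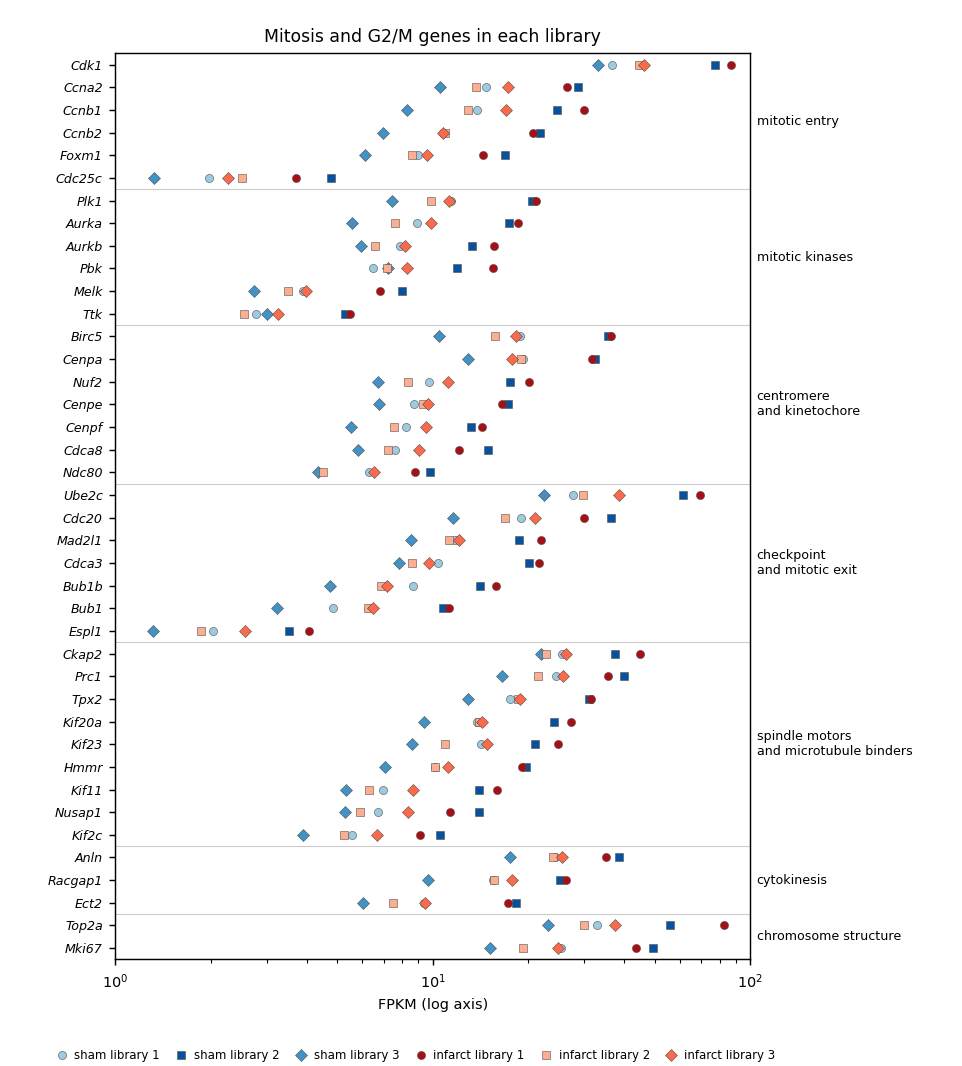
Level of each gene (FPKM, logarithmic axis) in the 3 sham and 3 infarct libraries, grouped by role. In all 40 genes sham 2 and infarct 1 hold the 2 highest values, and the groups overlap.

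**Figure D3:**
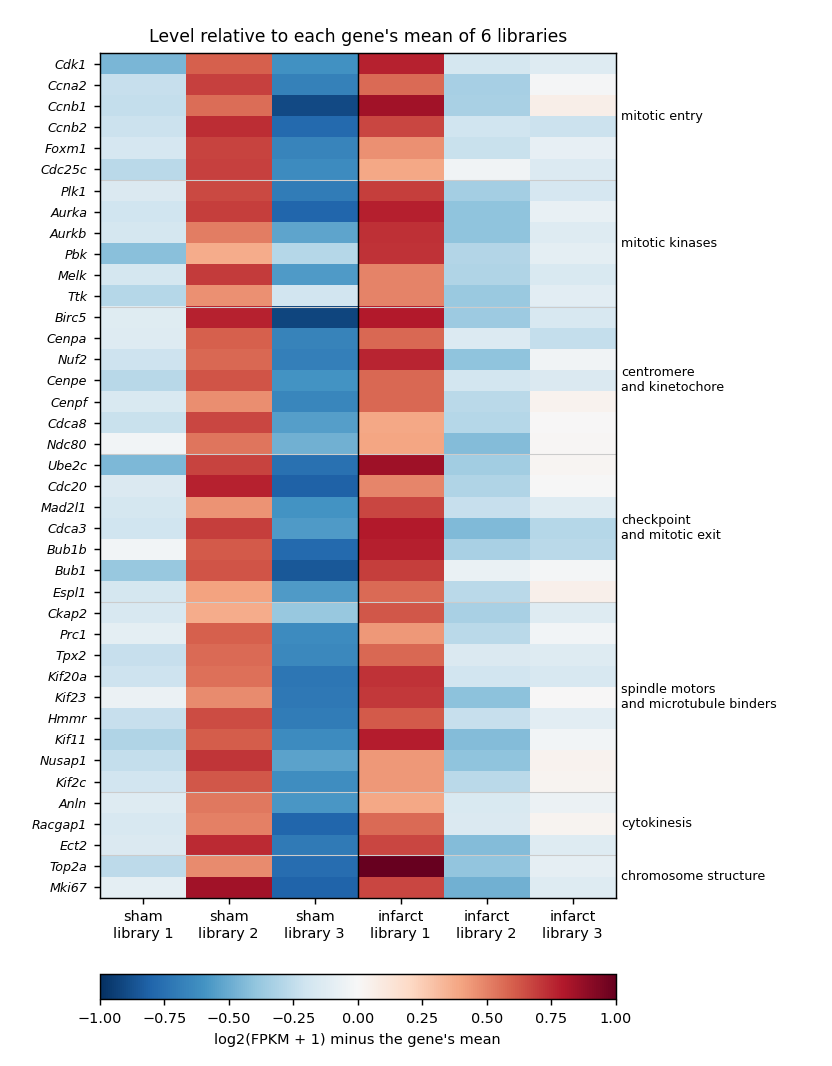
Heat map of log2(FPKM + 1) minus the gene's own mean over the 6 libraries (colour, log2 units), with genes in rows by role and libraries in columns. Sham 2 and infarct 1 are above the mean in all 40 genes, and sham 3 is the lowest library in 38.

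Genes of mitotic entry make or switch on the kinase that starts mitosis. Cdk1, the kinase itself, read 36.7, 77.3 and 33.1 FPKM across sham 1 to 3, and 87.2, 44.7 and 46.3 FPKM across infarct 1 to 3. Sham 2 and infarct 1 were each well above the other libraries of their group, and the groups overlapped. The means were 49.02 ± 24.5 and 59.4 ± 24.1 FPKM (SD, n = 3 each), and the log2 change from sham to infarct was 0.31 with a standard error of 0.38 and an adjusted p of 1.00 (limma). Ccnb1, cyclin B1, which activates Cdk1, was at 13.7, 24.5 and 8.30 FPKM in sham and at 30.0, 12.9 and 17.0 FPKM in infarct. The lowest value was in sham 3 and the highest in infarct 1, with sham 1 and sham 2 inside the infarct range. Its log2 change was 0.38 with a standard error of 0.42 and a 95% interval from -0.62 to 1.38 (adjusted p = 1.00). Ccnb2, the second B-type cyclin, averaged 13.2 ± 7.7 FPKM in sham and 14.1 ± 5.7 FPKM in infarct, and Ccna2, the S and G2 cyclin, 18.0 ± 9.5 and 19.1 ± 6.5 FPKM. Foxm1, the transcription factor of late cell cycle genes, averaged 10.7 ± 5.6 and 10.9 ± 3.1 FPKM. Cdc25c, a phosphatase that releases Cdk1 from inhibition, was among the lowest of the 40, at 2.69 ± 1.8 and 2.83 ± 0.77 FPKM.

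The mitotic kinases phosphorylate centrosomes, kinetochores and the cleavage apparatus. Plk1, which acts from centrosome maturation to cytokinesis, was at 11.4, 20.6 and 7.44 FPKM in sham and at 21.1, 9.84 and 11.2 FPKM in infarct. Sham 2 and infarct 1 were almost level with each other, and the other 4 libraries lay between 7.44 and 11.4 FPKM. The means were 13.1 ± 6.7 and 14.0 ± 6.1 FPKM, and the log2 change was 0.12 with a standard error of 0.39 (adjusted p = 1.00). Aurka, which builds the spindle poles, averaged 10.6 ± 6.1 FPKM in sham and 12.0 ± 5.7 FPKM in infarct. Aurkb, the kinase of the chromosomal passenger complex, averaged 9.02 ± 3.8 and 10.1 ± 4.8 FPKM. Ttk, a checkpoint kinase also called Mps1, varied less than most of the group, with a highest to lowest ratio of 2.16. Melk and Pbk are kinases raised in dividing cells, and their ratios were 2.92 and 2.39.

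Centromere and kinetochore genes hold the chromosomes to the spindle. Birc5, survivin of the chromosomal passenger complex, was at 18.8, 35.7 and 10.4 FPKM in sham and at 36.4, 15.7 and 18.3 FPKM in infarct. The lowest library was sham 3, the highest pair was within 1 FPKM of each other, and the groups overlapped. The means were 21.6 ± 12.9 and 23.5 ± 11.2 FPKM, and the log2 change was 0.18 with a standard error of 0.47 (adjusted p = 1.00). Cdca8, borealin of the same complex, averaged 9.45 ± 4.8 FPKM in sham and 9.45 ± 2.5 FPKM in infarct. Cenpa, the centromeric histone variant, was at 21.5 ± 9.9 and 22.8 ± 7.7 FPKM. Cenpe, a kinetochore motor, and Cenpf, an outer kinetochore protein, had infarct to sham ratios of means of 1.09 and 1.17. The NDC80 complex subunits Ndc80 and Nuf2 bind microtubules, and Ndc80 was the 1 gene of the 40 with a negative log2 change, at -0.02.

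Checkpoint and exit genes delay and then release anaphase. Ube2c, the ubiquitin-conjugating enzyme of the anaphase-promoting complex, was at 27.7, 61.4 and 22.4 FPKM in sham and at 69.4, 29.8 and 38.6 FPKM in infarct. Sham 2 exceeded 2 of the infarct libraries, and infarct 2 exceeded 2 of the sham libraries. Its means were 37.2 ± 21.1 and 45.9 ± 20.8 FPKM, with a log2 change of 0.34, a standard error of 0.43 and an adjusted p of 1.00. Bub1, a kinase of the checkpoint, had the smallest unadjusted p of the 40, 0.343 by limma, at 4.85, 10.8 and 3.22 FPKM in sham and 11.3, 6.26 and 6.49 FPKM in infarct. Sham 2 lay within the infarct range, while sham 1 and sham 3 lay under all 3 infarct libraries. Its log2 change was 0.40 with a standard error of 0.39 and a 95% interval from -0.53 to 1.33. Cdc20, the activator that the checkpoint inhibits, averaged 22.3 ± 13 and 22.6 ± 6.7 FPKM, and Mad2l1, which binds Cdc20, 12.9 ± 5.2 and 15.1 ± 5.9 FPKM. Bub1b, called BubR1, averaged 9.14 ± 4.7 and 9.96 ± 5.1 FPKM. Espl1, separase that cleaves cohesin, and Cdca3, which promotes degradation of the kinase Wee1, had ratios of means of 1.24 and 1.04.

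Spindle motors and microtubule binders were at widely different levels, from Kif2c to Ckap2. Ckap2, a protein of spindle microtubules and the highest of the group, was at 25.6, 37.4 and 21.9 FPKM in sham and at 44.9, 22.7 and 26.2 FPKM in infarct. It varied least of the 40 genes, and its groups overlapped. Its log2 change was 0.11 with a standard error of 0.29 (adjusted p = 1.00). Kif11, the motor that separates the poles, averaged 8.75 ± 4.6 and 10.3 ± 5.0 FPKM. Kif20a and Kif23, motors of the central spindle, averaged 15.7 ± 7.5 and 14.6 ± 6.2 FPKM in sham and 18.5 ± 7.6 and 16.8 ± 7.1 FPKM in infarct. Kif2c, which shortens microtubules, was the lowest of the group, at 6.66 ± 3.5 and 7.003 ± 2.0 FPKM. Prc1 bundles antiparallel microtubules, Tpx2 activates Aurora A, and Nusap1 and Hmmr bind spindle microtubules, and their ratios of means were 1.02, 1.12, 0.984 and 1.10.

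Cytokinesis genes position and close the cleavage furrow. Anln, anillin of the contractile ring, was at 24.3, 38.7 and 17.4 FPKM in sham and at 35.1, 23.9 and 25.6 FPKM in infarct. Here sham 2 was the highest library and sham 3 the lowest, so the infarct libraries lay inside the sham range. The log2 change was 0.12 with a standard error of 0.29 (adjusted p = 1.00). Racgap1, a partner of Kif23 at the central spindle, was at 15.5, 25.1 and 9.62 FPKM in sham and at 26.2, 15.6 and 17.8 FPKM in infarct. Its sham 2 value lay inside the infarct range, and sham 1 and sham 3 lay under all infarct libraries. The log2 change was 0.30 with a standard error of 0.34 (adjusted p = 1.00). Ect2, the exchange factor for RhoA at the furrow, averaged 11.2 ± 6.3 and 11.4 ± 5.2 FPKM.

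Top2a and Mki67 act on chromosome structure and are common marks of dividing cells. Top2a, topoisomerase II alpha, which untangles sister chromatids, was at 33.0, 55.7 and 23.0 FPKM in sham and at 82.7, 29.9 and 37.4 FPKM in infarct. Infarct 1 stood 1.48 times above sham 2, the highest such ratio of the 40, and the groups overlapped. The means were 37.2 ± 16.8 and 50.01 ± 28.5 FPKM, and the log2 change was 0.37 with a standard error of 0.44 and a 95% interval from -0.67 to 1.41 (adjusted p = 1.00). Mki67, the surface layer protein of mitotic chromosomes, was at 25.2, 49.2 and 15.1 FPKM in sham and at 43.6, 19.2 and 24.7 FPKM in infarct. Sham 2 was its highest library, and the means were 29.9 ± 17.5 and 29.2 ± 12.8 FPKM. In the authors' deposited table none of the 40 genes was marked significant, and the lowest q-value was 0.519, for Top2a.

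Across the 40 genes the fitted log2 changes ran from -0.02 to 0.40 with a median of 0.16, beside 0.02 over all genes tested. A positive change was found in 39 of 40, against 55.3% of all genes, but leaving out infarct 1 or sham 3 turned most signs. Without infarct 1 the median became -0.10 and 34 of the 40 changes were negative, and without sham 3 it became -0.13 with 33 negative. Without sham 2 it was 0.49, and without sham 2 and infarct 1 together it was 0.25, with 39 of 40 changes positive. That last alternative was chosen after the data had been seen. The 95% intervals of all 40 genes included 0, and reached at most 1.41 upward and -1.03 downward. With 3 libraries a group, an exact two-sided permutation test of a single gene cannot give a p under 0.1.

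**Figure D4:**
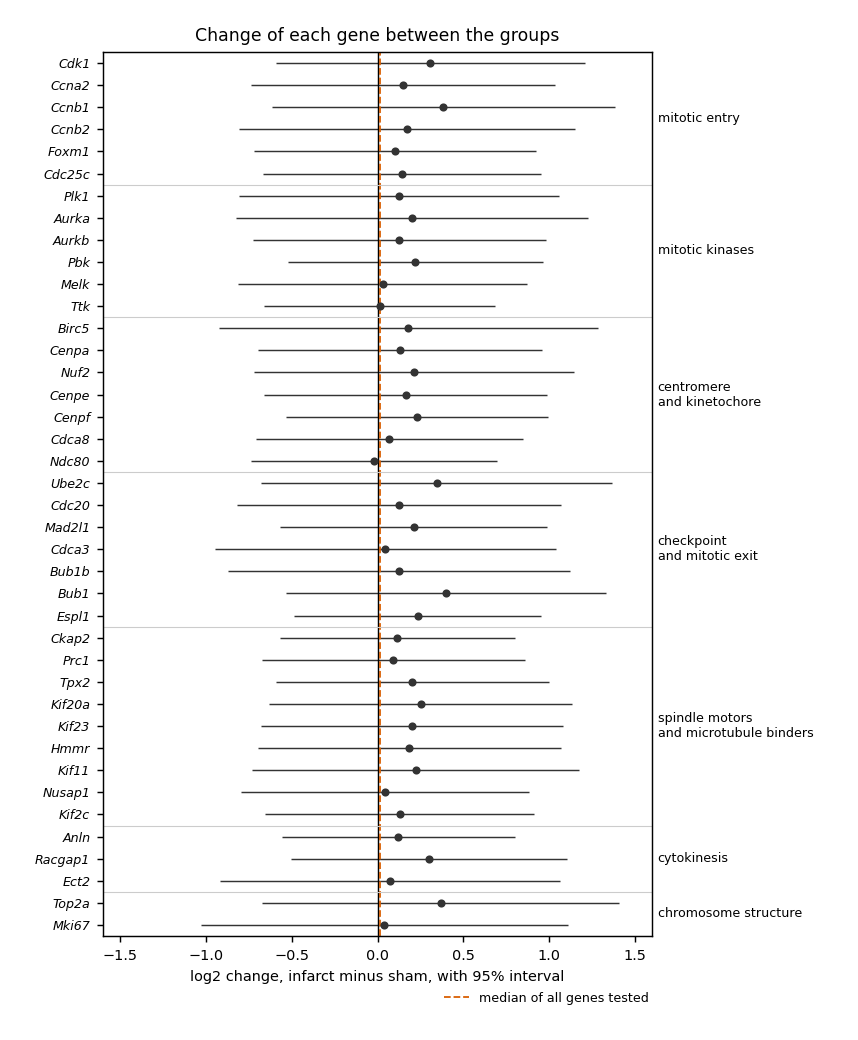
Fitted log2 change from sham to infarct (horizontal axis) of each gene with its 95% interval, by role, with the median of all genes tested as a dashed line. All 40 intervals cross 0, and Bub1 has the largest change, 0.40; leaving out infarct 1 or sham 3 turned most changes negative.

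Dividing each gene by the geometric mean of the 40 genes in the same library leaves what a gene does beyond the common level. This scaling was chosen after the values had been seen, and it ties the genes to each other. After it, the groups did not overlap for 3 of the 40 genes. The share over all genes scaled the same way was 1.41%, but the scaling puts the library order of the 40 genes into every other gene, so the 2 shares are not comparable and nothing is read from them. The relative log2 level of Ccnb1 read 0.32, 0.31 and 0.10 across sham 1 to 3, and 0.56, 0.32 and 0.49 across infarct 1 to 3. That of Bub1 read -1.01, -0.81 and -1.04 across the sham libraries, and -0.78, -0.61 and -0.78 across the infarct libraries. Both genes were higher in each infarct library, but for Ccnb1 sham 1 and infarct 2 differed only in the third decimal. Melk was lower in each infarct library, reading -1.27, -1.20 and -1.22 across sham 1 to 3, and -1.43, -1.31 and -1.36 across infarct 1 to 3. These 3 genes are printed because they separated, so their separation is no evidence of a difference between the groups. With 3 libraries a group, labels assigned at random separate a gene with a probability of 0.1. No test was made of these differences.

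Taken as a geometric mean of FPKM + 1, the 40 genes reached 86.2%, 151% and 63.3% of the sham mean across sham 1 to 3, and 154%, 81.0% and 93.8% across infarct 1 to 3. The ratio of infarct to sham was 1.09. Lists of other cell cycle genes, chosen with these data already known, were set beside them. Of 50 other G2 and M phase genes none was called, 46 had a positive change, and 48 had sham 2 and infarct 1 as the 2 highest libraries. Cdca2, a chromatin regulator of mitotic exit, read 4.54, 9.32 and 3.58 FPKM across sham 1 to 3, and 13.1, 5.54 and 6.67 FPKM across infarct 1 to 3. The groups overlapped, and it did not pass the test. Of 45 S phase genes none was called, 41 were positive and 43 had the same pair highest. Pcna, the sliding clamp of DNA replication, was at 36.8, 52.4 and 37.3 FPKM in sham and at 68.9, 35.2 and 45.6 FPKM in infarct.

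Lists of other cell cycle regulators, some of which act in S, G2 or M, were set beside the 40 genes. They were compared by the ratio of the highest to the lowest library, which was 2.43 for the geometric mean of the 40. The other G2 and M phase genes came close, at 2.18, followed by the S phase genes at 1.90. The ratio was 1.37 for the RB, E2F and DREAM genes, 1.12 for 6 G1 cyclins and kinases and 1.08 for 13 CDK inhibitors and p53 target genes. The difference between lists was not tested. Ccnd1, cyclin D1, was at 487, 328 and 506 FPKM in sham and at 347, 540 and 453 FPKM in infarct, so that sham 2 and infarct 1 were its lowest libraries. Cdk4, the kinase that cyclin D1 activates, had the opposite order, with 114 FPKM in sham 2 and 110.4 FPKM in infarct 1 against 68.6 to 86.9 FPKM elsewhere. Of the 6 genes 3 had this pair lowest and 2 had it highest, and their own ratios ran from 1.22 to 1.82, so the level of the list is flatter than its genes. Cdkn1a, the inhibitor p21, ranged from 141 to 162 FPKM. Of the 13 genes of its list, 6 had sham 2 and infarct 1 lowest and 2 had them highest. For subunits of the anaphase-promoting complex, which act in mitosis, the ratio was 1.07. Single genes varied more than their lists here too, with ratios of 1.15 to 2.12 among the tested inhibitors and p53 targets and 1.10 to 1.72 among the subunits. Cdkn1c had a ratio of 4.74, but it was under 1 FPKM in every library and was not tested. Of 17 RB, E2F and DREAM genes tested none was called, and 10 had sham 2 and infarct 1 highest.

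**Figure D5:**
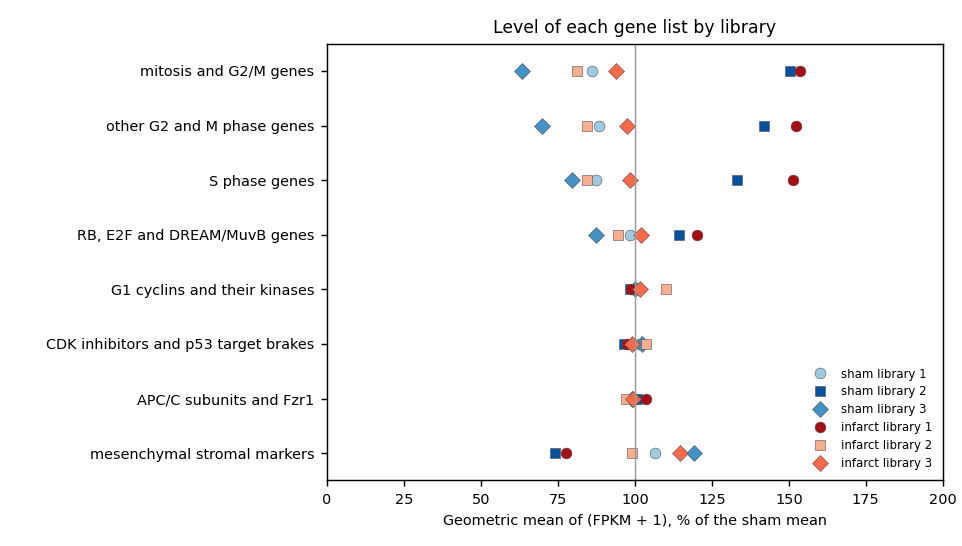
Geometric mean of (FPKM + 1) of each gene list (rows) in each library (points), in percent of the sham mean (horizontal axis). The 40 genes, the other G2 and M phase genes and the S phase genes are highest in sham 2 and infarct 1, at 151% and 154% for the 40 genes, and the mesenchymal stromal markers are lowest there, at 74.1% and 77.7%.

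Marker lists of cell types, among them the mesenchymal stromal list, were read in the same libraries. The geometric mean of the mesenchymal stromal markers was lowest in sham 2 and infarct 1, at 74.1% and 77.7% of the sham mean, but that pair was the lowest for 4 of its 10 genes. Col3a1, a fibrillar collagen, was one of the 4, at 440 and 552 FPKM there and 932 to 1119 FPKM in the other libraries. Col1a1, another fibrillar collagen, was not, with 749 FPKM in infarct 1 and 676 FPKM in sham 1. Of 12 endothelial markers 10 were tested, and their summed level was 93.5 to 450 FPKM in sham, highest in sham 2, and 5.03 to 27.5 FPKM in infarct. The groups did not overlap for any of these 10, against 7.81% of all genes tested. None was called by limma, with 10 at an unadjusted p under 0.05, against 3.58% of all genes. Tek, Tie1, Robo4 and Vwf were under 1 FPKM in every infarct library and so passed the filter only through sham. Their separation was therefore fixed by the filter. Pecam1, Cdh5, Emcn and Esam reached 1 FPKM in infarct only in infarct 1, so they too needed sham to pass. The filter thus favoured markers that are high in sham, and nothing is read from the separation or the p-values of the 10. Of 12 leukocyte markers 2 were tested, and the list summed to 10.4 to 29.5 FPKM in sham and 15.3 to 30.2 FPKM in infarct. Most of that sum was Lyz2, at 6.99 to 28.0 FPKM, while Ptprc was at most 0.053 FPKM. Adgre1, C1qa and Cd3e were at 0 throughout. Of 10 cardiomyocyte markers 1 was tested, and the list summed to 17.7 to 54.0 and 15.1 to 21.3 FPKM. Nearly all of it was Tnnt2, at 14.3 to 53.2 FPKM, with Myh6, Myl7 and Nppa at 0. The 5 erythroid markers summed to at most 1.41 FPKM. The part of these markers in the levels of the 40 genes was not tested.

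Some of the 40 genes share bases with a neighbour. Exons of 9 of them overlap a gene on the other strand, among them Plk1, Ube2c and Kif20a, and exons of Foxm1 and Top2a overlap one on the same strand. Ccnb1 and Ccnb2 each have a named pseudogene, so their reads may be divided. How the counting treated these cases is not given in the sources used here.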

How the data were processed

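RNA depleted of ribosomal RNA was read in pairs from 3 sham and 3 infarct libraries. The authors deposited 1 table with FPKM per gene and library and with p-values and q-values of their own comparison. Per the submitters' processing notes, Trimmomatic 0.36, HISAT2, SAMtools, Cufflinks, StringTie and Cuffdiff were used with build GRCm38; no annotation version is named there. The 40 genes and all other gene lists were chosen with earlier results of these data known. 14 entries marked as too deep to test were dropped and 110 symbols with several entries were summed. A minimum of 1 FPKM in 3 or more libraries left 12720 genes, which entered limma 3.58.1 (R 4.3.3) with an intensity trend on log2(FPKM + 1), infarct minus sham, two-sided, with Benjamini-Hochberg adjustment over all genes and a threshold of 0.05. Fold changes on this scale understate the change of low genes. Depth is not stated; it was inferred from the FPKM steps of genes with 1 transcript of 2000 to 12000 bases in GENCODE M21, assuming an effective length 250 bases shorter. The labels do not say that libraries came from separate animals, and p-values therefore reflect variation among these 6 libraries only, which may be technical. Changes with standard errors are given for the gene of highest mean in each role and for the 3 smallest p. From other lists, up to 3 genes with the smallest p and the 2 most abundant could be named. The test was checked on simulated data with independent noise for each gene, so the check does not cover genes that vary together. No support for the lack of calls among the 40 genes is drawn from it. Promoter letters were searched in Python 3.11.15. Alternatives were the pseudocount, the filter, the scaling, the trend and each library left out.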

Additional observations from a re-analysis of the deposited data

How the results depend on the processing

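None of the 40 genes was called under any alternative. The 3 genes called over all genes became 1 with no filter on low values, 0 to 3 when each library was left out, and 0 with sham 2 and infarct 1 both left out, an alternative chosen after seeing the data. The median log2 change of the 40 genes was 0.16 and ranged from -0.13 to 0.49 when each library was left out, with -0.13 without sham 3 and -0.10 without infarct 1. The ratio of geometric means was 1.09 and ranged from 0.874 to 1.46, with 0.925 without sham 3 and 0.874 without infarct 1. Log2 changes ranged from -0.19 to 0.48 for Plk1, -0.23 to 0.61 for Birc5, -0.17 to 0.33 for Ckap2, -0.14 to 0.41 for Anln, -0.022 to 0.63 for Racgap1 and -0.059 to 0.70 for Top2a. Changes that kept their sign ranged from 0.00034 to 0.68 for Cdk1, 0.0073 to 0.77 for Ube2c, 0.029 to 0.76 for Ccnb1 and 0.074 to 0.81 for Bub1, lowest without infarct 1 for the first pair and without sham 3 for the second, and highest without sham 2 for all 4. With sham 2 and infarct 1 both left out the median was 0.25, beside 0.0071 over all genes tested, and 39 of 40 changes were positive. In that setting 3 of the 40 genes had an unadjusted p under 0.05 by limma, against 567 of 12300 genes tested. The pseudocount, scaling and trend alternatives kept the median positive. No paired analysis was possible because the column numbers of the infarct group do not correspond to the numbers in its titles, and no number links libraries across groups. The cause of these shifts was not tested.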
